A study of Mus musculus with 4 samples.

Results

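The genes described here encode the enzymes and transporters of glycolysis, lactate handling, gluconeogenesis and the pentose phosphate pathway. They were chosen by name as a list of 39 gene symbols, from the glucose transporter gene *Slc2a1* to the transketolase gene *Tkt*, and all 39 were found among the 46095 gene symbols of the count table. Stomach RNA of C57BL/6 mice was sequenced at 12 weeks of age in 2 WT and 2 MYC-KI samples. MYC-KI mice carry the genotype Atp4b-cre;MycOE, in which Cre expressed from the *Atp4b* promoter turns on a floxed *c-Myc* overexpression allele in the parietal cell lineage. WT animals were Myc fl/fl littermates, which hold the floxed allele without Cre. The comparison asked how the stomach transcriptome differed when *c-Myc* was overexpressed in that lineage.

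Counts summed to between 30260305 and 41463647 per sample. In the deposited table the gene names and the counts of the MYC-KI columns appear to be in different orders, so these counts were matched, from the top row down, with the names sorted by character code, capitals first. Across the 39 genes, the correlation between mean log2 counts of the genotypes was 0.053 in the deposited order and 0.949 in the re-sorted order, a description over genes that share the libraries. The rows of 36 of the 39 genes move in this step, and those of *Eno1*, *Eno2* and *Eno3* stay in place. All MYC-KI values below rest on the re-sorted order, which was inferred from the table and not checked with its submitters. Mouse *Myc* had a count of 1062 and 759 for WT replicates 1 and 2 and of 735 and 1091 for MYC-KI replicates 1 and 2. After scaling, both MYC-KI samples lay below both WT samples, with a log2 fold change of -0.35 (edgeR, adjusted p = 0.163). Transcripts of the transgene itself were not analysed here, so that this row does not check the labels. Expression of *Xist* and *Ddx3y* differed between the WT samples, with 17846 *Xist* counts in WT replicate 2 and at most 201 in each of the other 3 samples. WT replicate 2 is therefore the only library with the female pattern. The labels number the samples but do not say whether each stands for a separate mouse, so p-values measure the spread between these samples.

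Glycolysis splits glucose into pyruvate, and its committed step, catalysed by phosphofructokinase, is set by fructose 2,6-bisphosphate, which the PFKFB enzymes make and break down. Pyruvate is then reduced to lactate and exported through monocarboxylate transporters, or enters mitochondria through the pyruvate dehydrogenase complex, which the PDK kinases switch off. Parietal cells are packed with mitochondria and rely on oxidative metabolism for acid secretion, while MYC is a transcription factor that binds E-boxes and is known to regulate several glycolytic genes in other tissues.

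Of the 39 genes, 5 changed, with an adjusted p under 0.05 in the quasi-likelihood test of edgeR over all 17643 tested genes and an absolute log2 fold change above 0.585. Because these 5 moved, the 300 bases around a RefSeq start site of each (250 before and 50 after, assembly GRCm38.p6, printed on the gene's own strand) are shown here, with the E-box CACGTG in capitals wherever it occurs. For *Pfkfb3* and *Pdk2*, which have more than 1 start site in the table, the window that holds the motif is shown.
Slc16a1, chr3:104638414-104638713, plus strand: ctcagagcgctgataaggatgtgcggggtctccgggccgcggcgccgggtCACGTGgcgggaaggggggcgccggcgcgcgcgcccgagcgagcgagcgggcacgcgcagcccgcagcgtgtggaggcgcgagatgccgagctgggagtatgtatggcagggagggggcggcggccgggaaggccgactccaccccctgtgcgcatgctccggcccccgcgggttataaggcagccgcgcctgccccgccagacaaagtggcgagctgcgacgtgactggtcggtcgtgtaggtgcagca
Hk2, chr6:82774405-82774704, minus strand: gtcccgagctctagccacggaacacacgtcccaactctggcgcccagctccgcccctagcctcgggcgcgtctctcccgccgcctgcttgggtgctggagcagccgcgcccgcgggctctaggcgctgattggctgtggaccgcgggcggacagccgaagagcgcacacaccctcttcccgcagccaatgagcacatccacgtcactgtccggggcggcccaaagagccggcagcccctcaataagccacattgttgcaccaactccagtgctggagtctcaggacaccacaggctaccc
Ldhb, chr6:142507908-142508207, minus strand: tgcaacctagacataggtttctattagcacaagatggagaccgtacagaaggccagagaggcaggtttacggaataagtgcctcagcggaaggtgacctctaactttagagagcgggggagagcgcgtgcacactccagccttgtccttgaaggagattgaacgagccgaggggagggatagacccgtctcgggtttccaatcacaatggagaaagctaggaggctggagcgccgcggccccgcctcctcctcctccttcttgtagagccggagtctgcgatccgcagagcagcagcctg
Pfkfb3, chr2:11502041-11502340, minus strand: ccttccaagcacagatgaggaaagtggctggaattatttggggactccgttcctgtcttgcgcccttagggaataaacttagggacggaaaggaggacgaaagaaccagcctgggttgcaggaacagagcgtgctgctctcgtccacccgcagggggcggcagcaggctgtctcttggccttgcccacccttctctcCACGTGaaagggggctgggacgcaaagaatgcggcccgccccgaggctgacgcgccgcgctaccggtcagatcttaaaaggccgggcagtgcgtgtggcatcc
Pdk2, chr11:95041322-95041621, minus strand: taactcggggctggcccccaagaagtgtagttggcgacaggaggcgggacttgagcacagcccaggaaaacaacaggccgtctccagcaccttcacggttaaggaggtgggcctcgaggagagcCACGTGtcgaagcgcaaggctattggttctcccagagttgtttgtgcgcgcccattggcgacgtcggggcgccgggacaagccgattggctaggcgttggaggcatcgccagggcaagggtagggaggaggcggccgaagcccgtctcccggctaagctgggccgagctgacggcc

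The motif CACGTG reads the same on both strands, and was the only one searched. It stood 200 bases before the start site of *Slc16a1*, 53 bases before an internal start site of *Pfkfb3*, which lies within the annotated gene, and 126 bases before that of *Pdk2*. The windows of *Hk2* and *Ldhb* held none. It was thus present for 3 of the 5 genes, of which 1 rose and 2 fell. Over the whole list, 7 of 39 genes (17.9%) had the motif in at least 1 window, against 8.09% of the 27025 genes in the promoter table, and 7 of their 60 windows (11.7%) held it, against 7.15% of 32851 windows. The other 4 genes were *Ldha*, with matches 145 and 48 bases before the start, *Pfkm* at 136, *Fbp2* at 42 and *Pfkfb2* at 22 bases. None of these 4 was called. The list has more windows per gene than the promoter table, whose genes were not matched to it, and the shares were not tested. These counts describe the letters in the windows and not the binding of any factor.

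*Slc16a1*, which encodes the lactate and pyruvate transporter MCT1, and *Hk2*, the inducible hexokinase that traps glucose in the cell, rose in the MYC-KI stomachs. *Ldhb*, the lactate dehydrogenase subunit typical of oxidative tissues, *Pfkfb3*, the PFKFB isozyme with the strongest kinase activity, and *Pdk2*, a widely expressed pyruvate dehydrogenase kinase, fell. A gene past both thresholds is named as called. All 39 genes were tested, and 2 (5.13%) were called higher, 3 (7.69%) lower and 34 not called. Over all tested genes 10.7% were called, 5.65% higher and 5.08% lower, so that the list held calls at about the same rate as the table. Both MYC-KI samples lay above both WT samples for 12 of the 39 (30.8%, against 33.3% of all tested genes) and below them for 14 (35.9%, against 31.5%). The median log2 fold change was -0.039 for the list and 0.012 for all tested genes. Of the 39 genes, 29 had an absolute log2 fold change under 0.585, and standard errors had a median of 0.13. DESeq2 called the same 5 genes and *Pck1*, beside 3232 of 17921 genes over the whole table. Without WT replicate 1 or without WT replicate 2 edgeR called none of the 39 genes and no gene of the table, while 9 and 8 of the 39 then had an unadjusted p under 0.05 (with all samples it was 15 of the 39 and 34.1% of all tested genes), and the 5 genes kept their directions. In the deposited row order 5 were called higher and 29 lower, and 18580 of all 22083 tested genes were called.

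**Figure D1:**
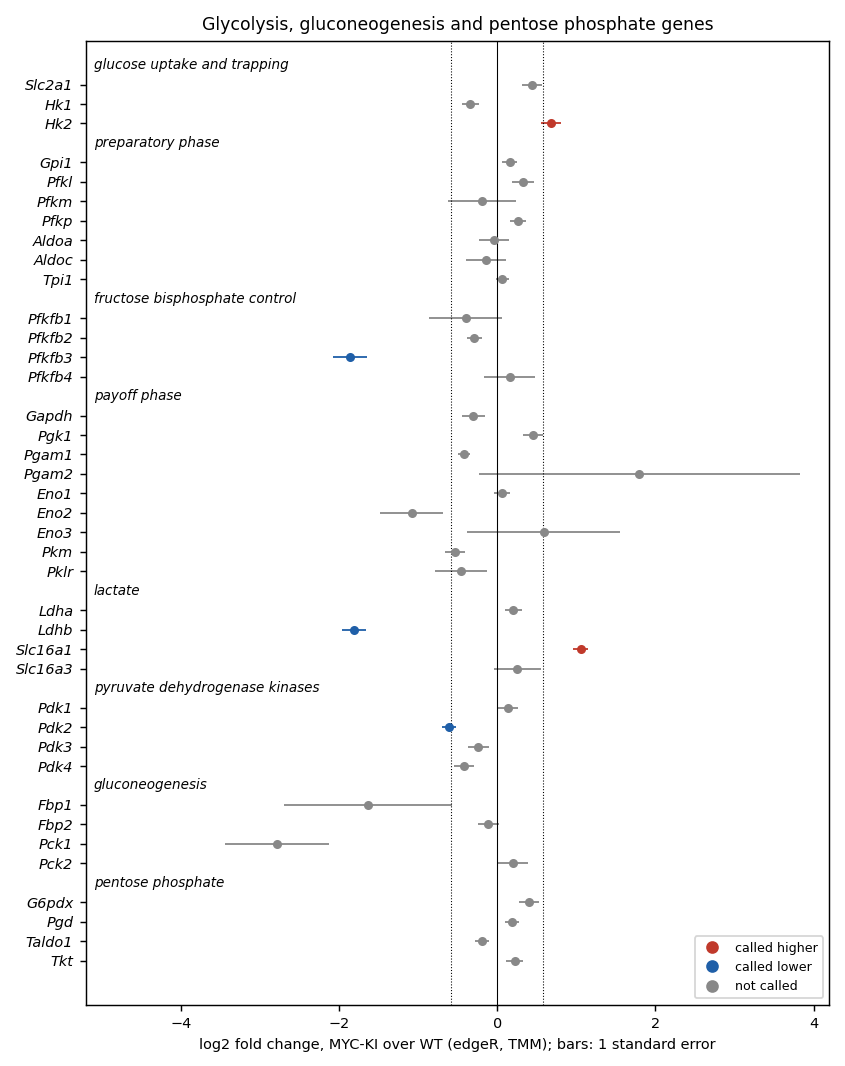
Log2 fold change of MYC-KI over WT (x axis) for each of the 39 genes (y axis, grouped by role), with bars of 1 standard error from edgeR and dotted lines at the threshold of 0.585 in either direction. *Slc16a1* and *Hk2* stand to the right in red, *Ldhb*, *Pfkfb3* and *Pdk2* to the left in blue, and the widest bars belong to *Pgam2* and *Fbp1*.

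Markers of parietal, chief and surface mucous cells also moved with the genotype, while those of mucous neck cells were not called. The summed level of 7 parietal cell markers was 11106 and 11302 normalised CPM (CPM, counts scaled by TMM to a common effective library size) in the WT samples and 283 and 347 in the MYC-KI samples, with all 7 (*Atp4a*, *Atp4b*, *Kcnq1*, *Kcne2*, *Slc26a9*, *Aqp4* and *Esrrg*) called lower. That of 5 chief cell markers was 84853 and 80511 against 1198 and 1518, with *Pgc*, *Gif*, *Bhlha15* and *Chia1* called lower. *Pgc* made up most of that sum, and the remaining marker, *Pga5*, stood at 34.3 and 27.0 against 38.2 and 23.7 and was not called. That of 4 surface mucous markers was 44889 and 53560 against 10957 and 17194, with *Muc5ac*, *Gkn1*, *Gkn2* and *Tff1* called lower. That of the mucous neck markers *Muc6* and *Tff2* was 9863 and 12194 against 19714 and 8667, and both genes overlapped between genotypes. None of these markers was at 0 in any sample, so transcripts of these cell types were detected in all 4. In bulk RNA, fewer cells of a type and less RNA per cell cannot be told apart. The part of these losses in any change of the list was not tested.

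In the first group, glucose uptake and trapping, 1 of 3 genes was called. *Hk2* stood at 44.9 and 45.0 normalised CPM in WT and at 79.5 and 64.6 in MYC-KI. The genotypes did not overlap, and the MYC-KI samples differed more from each other than the WT samples did. The means were 44.9 ± 0.056 and 72.0 ± 10.5 (SD, n = 2 each), a log2 fold change of 0.68 with a standard error of 0.13 (edgeR, adjusted p = 0.0421). *Hk2* lies at chr6:82725025-82774454 on the minus strand (GRCm38, GENCODE M21). *Hk1*, the constitutive hexokinase, had 288 and 282 normalised CPM in WT and 208 and 242 in MYC-KI, and *Slc2a1*, which encodes the basal glucose transporter GLUT1, had 96.4 and 88.6 against 114 and 137. Neither overlapped between genotypes and neither was called, with log2 fold changes of -0.34 ± 0.11 (SE, edgeR adjusted p = 0.108) and 0.44 ± 0.12 (SE, edgeR adjusted p = 0.088). Without MYC-KI replicate 1 the adjusted p of *Hk2* was 0.051 and its log2 fold change 0.52, under the threshold.

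None of the 7 genes of the preparatory phase, which turns glucose 6-phosphate into triose phosphates, was called by edgeR or by DESeq2, and none had an unadjusted p under 0.05. *Gpi1*, glucose 6-phosphate isomerase, had 438 and 443 normalised CPM in WT and 467 and 518 in MYC-KI, a log2 fold change of 0.16 ± 0.09 (SE). The 3 phosphofructokinase subunits showed log2 fold changes of 0.33 ± 0.14 for the liver type *Pfkl*, 0.26 ± 0.11 for the platelet type *Pfkp* and -0.20 ± 0.43 for the muscle type *Pfkm* (SE). Levels of *Pfkm* were uneven between the MYC-KI samples, at 23.0 and 54.6 normalised CPM, against 47.3 and 41.7 in WT. *Aldoa*, the ubiquitous aldolase, stood at 916 and 897 against 734 and 1031 with a log2 fold change of -0.04 ± 0.19, and the brain type *Aldoc* at 12.2 and 9.79 against 11.7 and 8.24 with -0.14 ± 0.25 (SE). Both overlapped between genotypes. *Tpi1*, triose phosphate isomerase, had the most even levels, 377 and 356 in WT and 380 and 386 in MYC-KI, with a log2 fold change of 0.06 ± 0.08 (SE).

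Among the 4 genes that control fructose 2,6-bisphosphate, *Pfkfb3* fell and the other 3 were not called. It had 78.2 and 74.6 normalised CPM in WT and 25.2 and 16.9 in MYC-KI. Every MYC-KI value was well under every WT value. Means of 76.4 ± 2.61 and 21.05 ± 5.93 (SD, n = 2 each) gave a log2 fold change of -1.86 with a standard error of 0.22 (edgeR, adjusted p = 0.0228), a 3.63-fold lower level. The gene lies at chr2:11471433-11554077 on the minus strand. *Pfkfb2*, the cardiac isozyme, had 96.7 and 105 against 78.7 and 86.8, without overlap, and a log2 fold change of -0.29 ± 0.10 (SE, edgeR adjusted p = 0.119). *Pfkfb4* had 16.3 and 14.5 against 22.2 and 12.2, and *Pfkfb1*, the liver isozyme, 1.40 and 2.55 against 1.21 and 1.77. Both overlapped, with log2 fold changes of 0.16 ± 0.32 and -0.40 ± 0.47 (SE).

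The payoff phase, from triose phosphate to pyruvate, had no called gene among 9, by edgeR or by DESeq2, and 4 had an unadjusted p under 0.05, beside 34.1% of all tested genes. *Pgam1*, the non-muscle phosphoglycerate mutase, came closest. It had 83.4 and 84.2 normalised CPM in WT and 60.5 and 64.5 in MYC-KI, without overlap, and its log2 fold change of -0.42 ± 0.08 (SE) passed the test (edgeR, adjusted p = 0.0416) but not the threshold on size. *Pkm*, which encodes the pyruvate kinase of most tissues, had 1441 and 1224 against 870 and 972, with a log2 fold change of -0.53 ± 0.13 (SE, edgeR adjusted p = 0.0699). *Pgk1*, phosphoglycerate kinase, had 67.5 and 54.3 against 83.5 and 83.9, with 0.46 ± 0.13 (SE, edgeR adjusted p = 0.0872). Thus, of the 3 abundant genes of this phase with the smallest p, 2 had negative and 1 had a positive value. *Eno1*, the ubiquitous enolase, had 247 and 229 against 232 and 265 and overlapped, with 0.06 ± 0.11 (SE). *Eno2*, the neuronal enolase, was counted 171 and 95 times in WT against 53 and 109 times, which after scaling did not overlap (5.10 and 3.41 against 1.56 and 2.44 normalised CPM), with a log2 fold change of -1.08 ± 0.39 (SE, edgeR adjusted p = 0.14). *Gapdh*, glyceraldehyde 3-phosphate dehydrogenase, had 36.6 and 32.7 against 25.3 and 30.8, with -0.30 ± 0.15 (SE, edgeR adjusted p = 0.228).

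Muscle-type genes of the same phase followed a single library. *Pgam2*, the muscle phosphoglycerate mutase, was counted 59 and 25 times in WT but 0 and 413 times in MYC-KI, and *Eno3*, the muscle enolase, had 59 and 22 against 18 and 147. For both, 1 MYC-KI sample lay under and the other above both WT samples after scaling. The summed level of 9 striated muscle markers ordered the samples in the same way, with 143 and 108 normalised CPM in WT and 18.3 and 1285 in MYC-KI. Both *Myh2* and *Myh4* were at 0 in MYC-KI replicate 1, and no marker of that list was called by edgeR or DESeq2 or had an unadjusted p under 0.05. The order was not particular to muscle. The summed level of 10 forestomach squamous markers ordered the samples alike, at 2750 and 1615 in WT and 979 and 4611 in MYC-KI. *Pgam2* had a log2 fold change of 1.80 ± 2.03 (SE), which became 2.79 without MYC-KI replicate 1 and -8.41 without MYC-KI replicate 2, and passed both thresholds in either case. The second of these values rests on a count of 0 and is no bound. *Pfkm* became -0.95 and was called without MYC-KI replicate 2, and *Eno3*, at 0.59 ± 0.97 (SE), became -1.26. *Pklr*, the liver and red cell pyruvate kinase, was low in MYC-KI replicate 2 only, at 84.7 and 72.8 against 74.9 and 39.4 normalised CPM, with -0.46 ± 0.33 (SE), and was called at -0.998 without MYC-KI replicate 1. The summed level of 6 enterocyte markers was also lowest in that library, at 2155 and 1392 in WT and 1513 and 125 in MYC-KI, with none of the 6 at 0, and none called by either tool or at an unadjusted p under 0.05. The part of muscle, squamous or enterocyte RNA in these values was not tested.

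**Figure D2:**
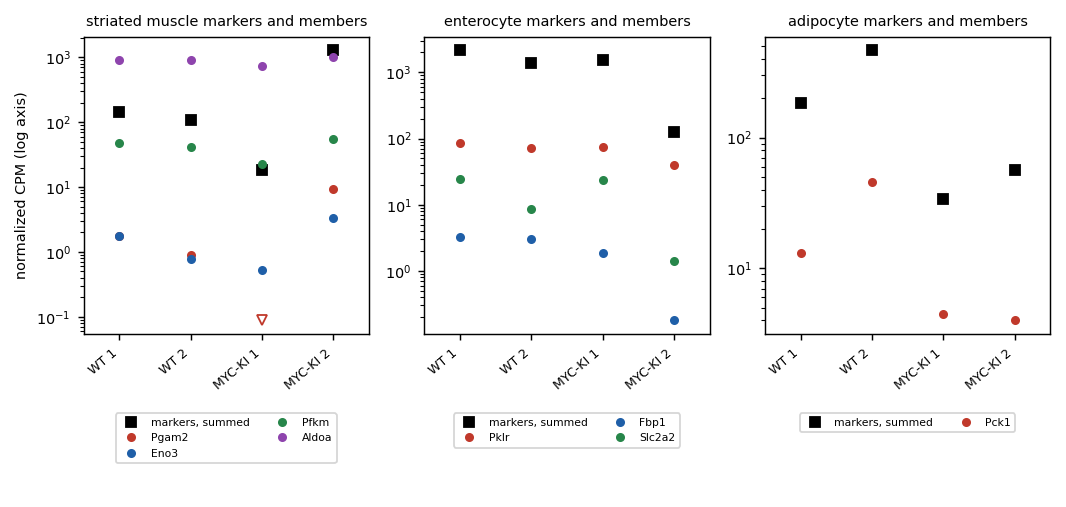
Normalised CPM (y axis, log scale) in each of the 4 samples (x axis) for summed markers (black squares) of striated muscle, enterocytes and adipocytes, and for genes of the list or of its pathways (circles); the open triangle marks a count of 0, drawn at the level of 3 counts. *Pgam2* and *Eno3* are highest where muscle markers reach 1285, *Fbp1*, *Pklr* and *Slc2a2* are lowest where enterocyte markers fall to 125, and *Pck1* is highest where adipocyte markers reach 466.

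Lactate handling held 2 of the 5 calls, in opposite directions. *Slc16a1* stood at 136 and 119 normalised CPM in WT and at 266 and 264 in MYC-KI. The MYC-KI samples nearly coincided, and both lay far above the WT samples. Means of 128 ± 11.6 and 265 ± 1.93 (SD, n = 2 each) gave a log2 fold change of 1.06 with a standard error of 0.10 (edgeR, adjusted p = 0.0188), a 2.08-fold rise, at chr3:104638668-104658462 on the plus strand. *Ldhb* stood at 229 and 238 in WT and at 58.1 and 75.1 in MYC-KI. There was again no overlap, and the drop was large against the spread within either genotype. Means of 234 ± 6.08 and 66.6 ± 12.0 (SD, n = 2 each) gave a log2 fold change of -1.81 with a standard error of 0.15 (edgeR, adjusted p = 0.0176), a 3.51-fold lower level, at chr6:142490249-142507957 on the minus strand. *Ldha*, the subunit typical of glycolytic tissues, had 801 and 703 against 875 and 855, without overlap, and a log2 fold change of 0.20 ± 0.11 (SE, edgeR adjusted p = 0.263). *Slc16a3*, which encodes the lactate exporter MCT4, was scarce at 12.9 and 7.74 against 13.3 and 11.4 and overlapped, with 0.26 ± 0.30 (SE).

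Of the 4 kinases that inactivate pyruvate dehydrogenase, *Pdk2* was called. It had 73.4 and 67.7 normalised CPM in WT and 45.3 and 47.1 in MYC-KI. The genotypes were well apart, with a small spread in each. Means of 70.6 ± 4.01 and 46.2 ± 1.21 (SD, n = 2 each) gave a log2 fold change of -0.61 with a standard error of 0.08 (edgeR, adjusted p = 0.0286), just past the threshold of 0.585, at chr11:95026258-95041354 on the minus strand. Scaling by library size alone moved it to -0.39, and leaving out MYC-KI replicate 1 to -0.58, and neither was called. *Pdk4*, the starvation-induced kinase, had 37.2 and 36.8 against 25.4 and 29.8, and *Pdk3* had 30.6 and 30.5 against 23.6 and 28.1. Neither overlapped or was called, with log2 fold changes of -0.42 ± 0.12 (SE, edgeR adjusted p = 0.0919) and -0.24 ± 0.13 (SE, edgeR adjusted p = 0.274). *Pdk1*, the hypoxia-responsive kinase, had 84.3 and 69.2 against 87.9 and 81.3 and overlapped, with 0.14 ± 0.13 (SE).

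None of the 4 gluconeogenesis genes was called by edgeR, 1 of them (*Pck1*) had an unadjusted p under 0.05, and DESeq2 called that 1. *Pck1*, the cytosolic phosphoenolpyruvate carboxykinase that commits carbon to gluconeogenesis, was counted 437 and 1279 times in WT but 153 and 179 times in MYC-KI. Both MYC-KI values were under both WT values, while the WT samples themselves differed, at 13.0 and 45.8 normalised CPM. Its log2 fold change was -2.79 ± 0.66 (SE, edgeR adjusted p = 0.0645), and -1.61 without WT replicate 2. The summed level of 6 adipocyte markers was highest in that same WT sample, at 186 and 466 in WT and 34.2 and 56.3 in MYC-KI, with *Adipoq* and *Lep* at 0 in MYC-KI replicate 1 and 2 of the 6, *Fabp4* and *Lep*, called lower. DESeq2 called 5 of the 6 lower, and all 6 were below WT in both MYC-KI samples, beside 31.5% of all tested genes. WT replicate 2 was also the only library with the female pattern, and its surface mucous (53560) and leukocyte (226) sums were likewise the highest of all samples. The part of adipocyte RNA or of sex in the value of *Pck1* was not tested. *Pck2*, the mitochondrial form, had 38.3 and 26.9 against 37.4 and 37.4 normalised CPM and overlapped, with 0.20 ± 0.19 (SE). *Fbp2*, the muscle fructose 1,6-bisphosphatase, had 60.7 and 59.8 against 62.3 and 49.3, with -0.11 ± 0.14 (SE). *Fbp1*, the liver form, was scarce, counted 110 and 86 times in WT but 64 and 8 times in MYC-KI. Its log2 fold change of -1.64 ± 1.06 (SE) became -4.12 and was called without MYC-KI replicate 1, and was -0.75 without MYC-KI replicate 2.

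The pentose phosphate pathway makes NADPH and ribose 5-phosphate from glucose 6-phosphate. None of its 4 genes was called by edgeR or DESeq2, 1 had an unadjusted p under 0.05, and all 4 had genotypes that did not overlap, 3 upward and 1 downward, beside 33.3% upward and 31.5% downward of all tested genes. *G6pdx*, the rate-limiting glucose 6-phosphate dehydrogenase, had 183 and 187 normalised CPM in WT and 220 and 270 in MYC-KI, with a log2 fold change of 0.40 ± 0.12 (SE, edgeR adjusted p = 0.104). *Pgd*, the second dehydrogenase of the pathway, had 88.8 and 83.9 against 94.2 and 103, with 0.19 ± 0.09 (SE). *Tkt*, transketolase, had 472 and 503 against 529 and 606, with 0.22 ± 0.11 (SE). *Taldo1*, transaldolase, had 260 and 243 against 211 and 228, with -0.20 ± 0.09 (SE). Scaling by library size alone shifted the median of all tested genes from 0.012 to 0.235, and with it *G6pdx* (0.63), *Slc2a1* (0.66) and *Pgk1* (0.68) were called higher. *G6pdx*, *Pgk1*, *Pdk3* and *Pfkfb1* are X-linked, and WT replicate 2, with the female pattern, was above WT replicate 1 for *G6pdx* and *Pfkfb1*, below it for *Pgk1* and nearly level with it for *Pdk3*.

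**Figure D3:**
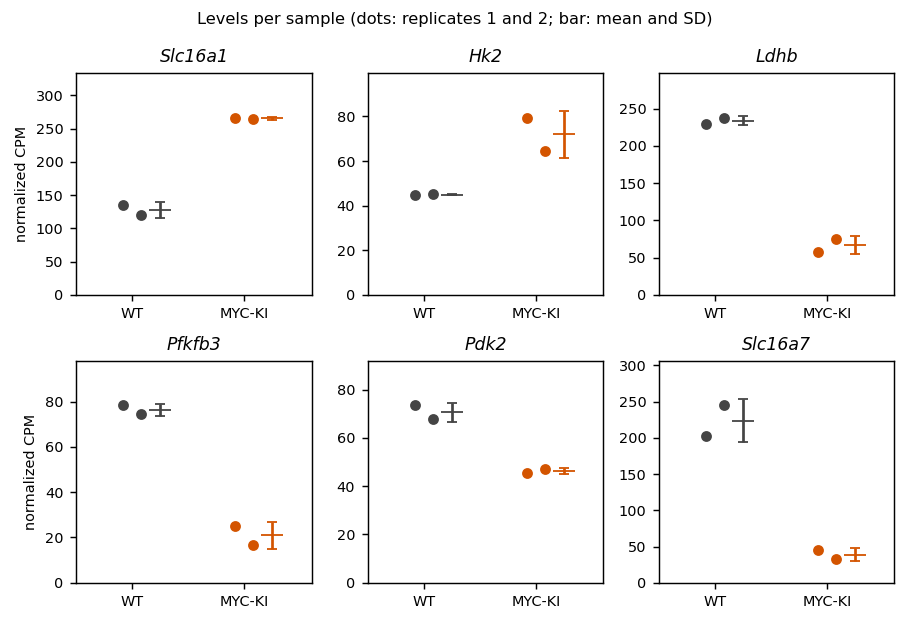
Normalised CPM (y axis, starting at 0) of the 5 called genes and of *Slc16a7* in the WT and MYC-KI samples (x axis); dots are the 2 samples of a genotype, and the bar gives their mean and SD. In every panel the MYC-KI dots lie on 1 side of the WT dots, upward for *Slc16a1* and *Hk2* and downward for the others.

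Isozymes of the same step were compared as ratios within each sample, which do not depend on library size. Of 14 such pairs, the log2 ratio was higher in both MYC-KI samples for 6, lower for 3 and overlapped for 4, and *Pgam1*/*Pgam2* gave no ratio in MYC-KI replicate 1. Among single genes, 33.3% of all tested lay higher and 31.5% lower in both MYC-KI samples, so these counts of pairs say little by themselves. An exact permutation test of 2 against 2 cannot go below a two-sided p of 0.333, so the ratios are given as values. The *Ldha*/*Ldhb* ratio was 3.49 and 2.96 in WT and 15.1 and 11.4 in MYC-KI, a shift of 2.03 in mean log2 ratio. *Hk1*/*Hk2* went from 6.42 and 6.27 to 2.61 and 3.75, a shift of -1.02, and *Pdk1*/*Pdk2* from 1.15 and 1.02 to 1.94 and 1.73, a shift of 0.76. All 3 were separated by more than the spread within genotypes. The pairs *Eno1*/*Eno2* (1.15), *Slc16a1*/*Slc16a3* (0.76), *Pfkl*/*Pfkm* (0.65) and *Pdk3*/*Pdk4* (0.18) also shifted upward in both MYC-KI samples, and *Fbp1*/*Fbp2* (-2.33) and *Pck1*/*Pck2* (-2.74) downward. *Pfkl*/*Pfkp*, *Aldoa*/*Aldoc*, *Eno1*/*Eno3* and *Pkm*/*Pklr* overlapped.

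**Figure D4:**
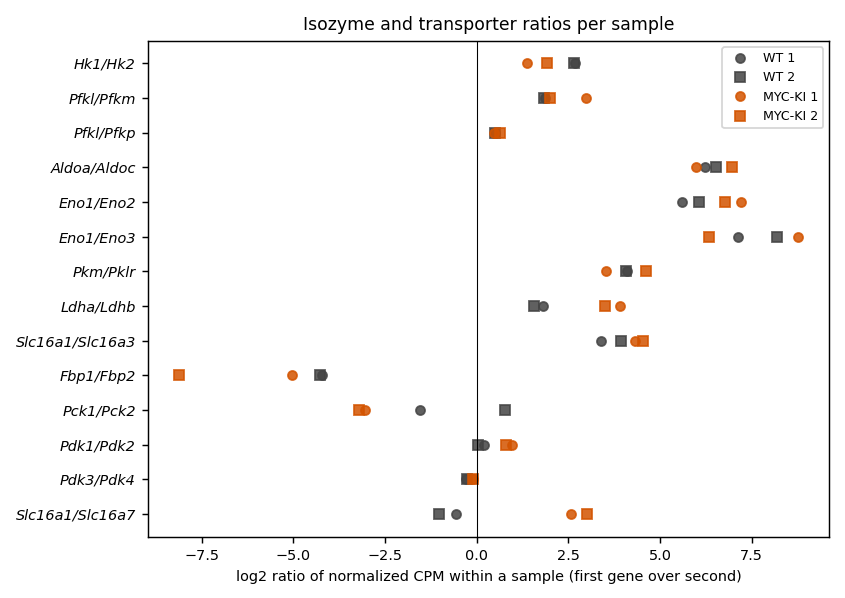
Log2 ratio of 2 genes of a pair within each sample (x axis) for 13 of the planned pairs and for *Slc16a1*/*Slc16a7* (y axis), with WT in grey and MYC-KI in orange, and replicate 1 as circles and replicate 2 as squares. The *Ldha*/*Ldhb* points move to the right by 2.03 on average, those of *Hk1*/*Hk2* to the left, and those of *Pkm*/*Pklr* overlap.

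Levels per kilobase of annotated exon are scaled for length but not for reads shared with other genes. The places of *Gapdh* (29 in WT) and *Pgk1* (15 in WT), with 58.4% and 68.0% of their 50-base stretches shared, are therefore uncertain. By this measure *Aldoa* had the highest mean of the 39 in both genotypes, 311 and 303 normalised CPM per kb. Another annotated gene also named *Aldoa* was left out of its exon length. In MYC-KI replicate 1 *Ldha* was higher than *Aldoa* (264 against 252). *Pkm* (266 in WT and 184 in MYC-KI) and *Ldha* (227 and 261) exchanged the next places. In WT, *Ldhb* followed in place 4 with 149 per kb, and it was in place 11 with 42.4 per kb in MYC-KI. *Slc16a1* moved from place 14 (28.8 per kb) to place 9 (59.9), *Hk2* from 30 (7.53) to 21 (12.1), and *Pfkfb3* from 25 (10.1) to 33 (2.78). *Pdk2* stayed near its place, 19 with 22.3 per kb in WT and 20 with 14.6 in MYC-KI. The lowest mean in both genotypes was that of *Pfkfb1*, at 0.491 and 0.371 per kb, but it was the lowest value in WT replicate 1 only, and *Eno3*, *Pgam2* and *Fbp1* were lower in WT replicate 2, MYC-KI replicate 1 and MYC-KI replicate 2. Neighbours in this order often lay within the spread of their samples, as did *Gpi1* (67.9 and 68.6 per kb) and *Tkt* (64.2 and 68.3) in WT.

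**Figure D5:**
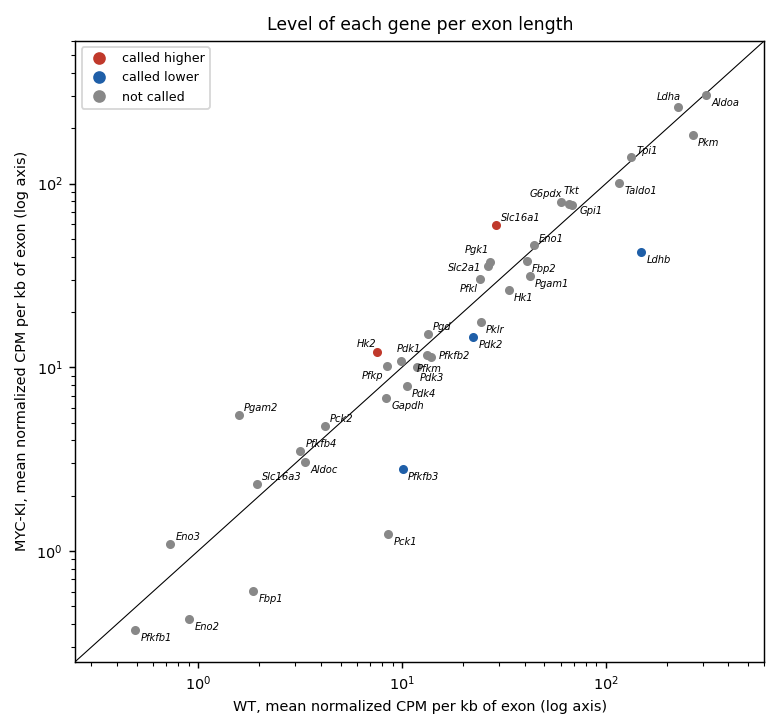
Mean normalised CPM per kb of exon in WT (x axis, log scale) against MYC-KI (y axis, log scale), 1 point per gene of the 39, with the line of equal levels. *Ldhb* and *Pfkfb3* lie below the line and *Slc16a1* and *Hk2* above it, while *Aldoa*, *Ldha* and *Pkm* hold the top right corner in both genotypes.

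Reads of several genes could be shared with other annotated genes. The search took both strands and did not tell copies elsewhere from genes that overlap at the same place. Over 20% of the 50-base stretches of the protein-coding transcripts occurred in another annotated gene for 9 of the 39, and 23 had under 5%. The highest shares were those of *Pgk1* (68.0%), *Gapdh* (58.4%), *Eno1* (49.5%, mainly with *Eno1b*) and *Pgam1* (41.5%). *Gapdh*, at 1229 and 911 counts in WT, had 3681 and 2809 counts on 57 rows that share its sequence, so its low level cannot be read as such. With these rows added, its log2 ratio of means was -0.094 in place of -0.30. For *Eno1* the sum gave -0.025 in place of 0.059, for *Pgk1* 0.42, for *Pgam1* -0.43 and for *Ldhb* -1.81. The row that shares sequence with *Ldhb* held only 6 and 15 counts in WT and 3 and 0 in MYC-KI, so its sum could hardly differ. Reads that the counting step may have dropped for matching several places are not restored by such sums.

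A wider list of 88 genes of the same pathways, of which 80 were tested, held 2 genes called higher and 11 called lower, with a median log2 fold change of -0.14. These are 2.50% and 13.8% of the 80, beside 5.65% and 5.08% of all tested genes. With library size alone 9 were called higher and 5 lower, so the balance of the directions turned with the scaling. The whole table turned too, with 75.5% of its 3011 calls higher, against 52.6% of the calls in the main fit. DESeq2 called 3 higher and 13 lower, the additions being *Emb*, *Hk3* and *Pdhx*. Over all genes it called 3232 of 17921, 46.5% of these higher. In the transport group of 15, *Slc16a7*, which encodes the high-affinity monocarboxylate transporter MCT2, fell. It had 203 and 245 normalised CPM in WT and 45.1 and 32.5 in MYC-KI, a log2 fold change of -2.53 ± 0.21 (SE, edgeR adjusted p = 0.0175). The ratio of *Slc16a1* to *Slc16a7*, a pair chosen after its values were seen, was 0.670 and 0.488 in WT and 5.90 and 8.10 in MYC-KI. Per kb of exon, *Slc16a7* stood at 18.9 in WT and 3.28 in MYC-KI, against 28.8 and 59.9 for *Slc16a1*. *Slc2a10*, a facilitative glucose transporter, fell by 1.20 on the log2 scale (edgeR, adjusted p = 0.0176). The intestinal and liver transporter *Slc2a2* had 24.7 and 8.57 normalised CPM in WT and 23.3 and 1.41 in MYC-KI and was not called.

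Mitochondrial use of pyruvate was represented by 10 genes, of which 1 was called. *Mpc2*, a subunit of the mitochondrial pyruvate carrier, had 84.2 and 83.0 normalised CPM in WT and 50.5 and 48.8 in MYC-KI, a log2 fold change of -0.75 ± 0.07 (SE, edgeR adjusted p = 0.0195). *Dld*, the dihydrolipoamide dehydrogenase shared by several complexes, passed the test at -0.45 but not the threshold on size, and 6 of the 10 genes were below WT in both MYC-KI samples, beside 31.5% of all tested genes. *Pcx*, pyruvate carboxylase, the first enzyme of gluconeogenesis from pyruvate, had 252 and 306 against 154 and 158, with -0.84 ± 0.12 (SE, edgeR adjusted p = 0.0307), as 1 of 4 further gluconeogenesis genes. Of 7 redox shuttle genes, the malate-aspartate shuttle enzymes *Mdh1* (-0.73, edgeR adjusted p = 0.0373) and *Got1* (-0.62, edgeR adjusted p = 0.0362), both cytosolic, fell. Their mitochondrial partners *Mdh2* (-0.21) and *Got2* (-0.09) overlapped between genotypes and were not called. *Gpd2*, of the glycerol phosphate shuttle, passed the test at -0.48 (edgeR, adjusted p = 0.0337) but not the threshold on size. *Ldhd*, which oxidises D-lactate, had 60.4 and 58.2 against 36.0 and 38.3, with a log2 fold change of -0.67 ± 0.08 (SE, edgeR adjusted p = 0.0248). Scaling by library size alone left *Mpc2* (-0.53), *Ldhd* (-0.45), *Mdh1* (-0.51) and *Got1* (-0.40) not called, the first pair for size and the other two for both size and edgeR's adjusted p (0.0544 and 0.0623).

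The genes called higher on the wider list were *Adpgk*, an ADP-dependent glucokinase, and *Prps1*, which makes phosphoribosyl pyrophosphate from ribose 5-phosphate. *Adpgk* had 26.2 and 28.1 normalised CPM in WT and 44.8 and 40.2 in MYC-KI, a log2 fold change of 0.65 ± 0.11 (SE, edgeR adjusted p = 0.0374). *Prps1* had 19.5 and 19.7 against 35.6 and 33.8, with 0.82 ± 0.11 (SE, edgeR adjusted p = 0.0255). Its paralog *Prps2* moved the opposite way, from 114 and 118 to 59.9 and 60.7, with -0.94 ± 0.07 (SE, edgeR adjusted p = 0.0168). *Rpia*, ribose 5-phosphate isomerase, passed the test at 0.56 but not the threshold on size. *Tktl1*, a transketolase-like gene, was counted 32 and 22 times in WT and 0 times in both MYC-KI samples, at least 11.2-fold lower against a floor of 3 counts per library. Of 14 tested glycogen genes, the branching enzyme gene *Gbe1* (-0.76, edgeR adjusted p = 0.0382) and *Phka2* (-0.73, edgeR adjusted p = 0.0369), a subunit of phosphorylase kinase, fell. With library size alone they stood at -0.53 and -0.51 and were not called. No gene was called among 4 tested regulators or among 11 genes of hexosamine and other hexose metabolism, by edgeR or DESeq2, with 1 and 3 genes at an unadjusted p under 0.05.

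Of the remaining marker lists, 3 overlapped between genotypes and 4 did not. Summed levels in WT and MYC-KI were 9863 and 12194 against 19714 and 8667 normalised CPM for mucous neck cells, 2750 and 1615 against 979 and 4611 for forestomach squamous epithelium, and 8851 and 5685 against 3002 and 6189 for smooth muscle, with no gene called by edgeR. In these 3 lists, 1 squamous gene, *Ivl*, had an unadjusted p under 0.05 and was called by DESeq2. Leukocyte markers summed to 216 and 226 against 92.7 and 81.8 with 2 of 6 (*Lyz2* and *Csf1r*) called lower. These 2 genes made up most of the sum, while *Ptprc*, *Cd3e* and *Cd79a* overlapped and *S100a8*, at under 1 normalised CPM, was higher in both MYC-KI samples without being called. Erythroid markers summed to 200 and 65.0 against 22.3 and 24.8, with 1 of 3 (*Hba-a1*) called lower by edgeR and all 3 by DESeq2. All 3 were below WT in both MYC-KI samples, beside 31.5% of all tested genes. Pancreatic acinar markers summed to 12.0 and 8.85 against 4.13 and 5.78. Of 2 tested, *Cela2a* was called lower by edgeR, and both (*Cel* and *Cela2a*) by DESeq2. At least 3 of 7 acinar markers were at 0 in each sample. Proliferation markers summed to 288 and 275 against 447 and 378. All 6 were above WT in both MYC-KI samples and had an unadjusted p under 0.05 in edgeR. Over all tested genes 33.3% lay above WT in this way, and 34.1% had such a p. Of the 6 markers, edgeR called *Ccnb1* higher, and DESeq2 called 4, *Birc5*, *Bub1*, *Ccnb1* and *Cdk1*.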

How the data were processed

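The authors deposited raw read counts per gene symbol, unnormalised, for 4 stomach samples in 1 table, and each column was mapped to its sample by name. The submitters' processing notes name HISAT2 and mm10; the counting tool, its strand setting and the annotation are not given in the sources used here. The list of 39 genes, the wider pathway list and the 13 marker lists were chosen with earlier results of these data known. Both MYC-KI columns were re-sorted by character code, a step that uses names only.

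The test was that of edgeR 4.0.16 under R 4.3.3 (TMM, filterByExpr, glmQLFit and glmQLFTest, no covariates, Benjamini-Hochberg over 17643 genes), and it was first run on simulated data. The standard error is the absolute log2 fold change over the square root of F. Depth was 30260305 to 41463647 counts per sample, and floors of 3 counts cover counting error only. Replicates differed by more than counting noise (chi-square per degree of freedom 22.7 in WT and 74.9 in MYC-KI). All 39 genes are named, and of the other lists each called gene where a list had 10 or fewer calls. The thresholds are those the authors used with DESeq2. *Slc2a2*, *Dld*, *Gpd2*, *Mdh2*, *Got2*, *Rpia*, the genes added by DESeq2 and uncalled markers were named after their values were seen, and other genes of the wider list enter the counts only.

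Each choice was varied in turn: the row order (as deposited), the tool (DESeq2 1.42.0), the scaling (by its size factors or by library size alone), the filter (none, or a minimum of 10 per sample), the fold threshold, a replicate block, and each sample left out once. Coordinates and exon lengths are from GENCODE M21 (GRCm38), and promoter windows from RefSeq (GRCm38.p6), in which all 39 genes were matched.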

Additional observations from a re-analysis of the deposited data

How the results depend on the processing

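The size factors of DESeq2, DESeq2 itself, no filter and a filter of at least 10 counts in every sample kept each count of calls within 1.5 times its value, and DESeq2 and no filter added *Pck1*. Over all genes DESeq2 called 3232, library size alone 3011 (75.5% higher, against 52.6%), and the replicate block 114, against 1892. With library size alone 5 genes of the list were called higher, 9 and 5 of the wider list were called higher and lower, and the median of the list was 0.18; *Pfkm* (0.025), *Aldoa* (0.18), *Aldoc* (0.084), *Fbp2* (0.11) and *Taldo1* (0.027) changed sign. The labels give no shared litter or batch behind the sample numbers, and the data showed little shared deviation (r of the replicate differences between genotypes 0.063). With the replicate block 0 were called higher and 1 (*Ldhb*) lower, 0 and 0 of the wider list, the median was -0.12 and *Pgam2* was -0.19, while 14 and 32 genes of the lists had an unadjusted p under 0.05 in edgeR, and the adjusted p of the 5 called genes was 0.049 to 0.081. An absolute log2 fold change above 1 left 1 gene higher and 2 lower of the list, and 0 higher and 3 lower of the wider list.

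Leaving out 1 sample, where the lone sample of a genotype is assumed to vary like the other group, gave 0 to 2 genes called higher and 0 to 5 lower, 0 to 4 and 0 to 10 of the wider list, and a median of -0.071 to 0.075. Without WT replicate 1 or 2 no gene of the table was called by edgeR, with 3554 and 3410 genes at an unadjusted p under 0.05. Signs changed for *Pfkm* (-0.95 to 0.30), *Aldoa* (-0.30 to 0.19), *Aldoc* (-0.41 to 0.093), *Pfkfb1* (-0.77 to 0.087), *Pfkfb4* (-0.34 to 0.53), *Pgam2* (-8.41 to 2.79), *Eno1* (-0.038 to 0.15), *Eno3* (-1.26 to 1.36), *Slc16a3* (-0.068 to 0.67), *Fbp2* (-0.29 to 0.049) and *Pck2* (-0.038 to 0.47).

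In the deposited row order 5 genes were called higher and 29 lower, 29 and 45 of the wider list, and the median was -3.92, while 18580 of all 22083 tested genes were called. It reversed *Slc2a1* (-2.74), *Hk2* (-6.11), *Gpi1* (-7.99), *Pfkl* (-13.21), *Pfkp* (-5.58), *Aldoc* (1.57), *Tpi1* (-7.64), *Pfkfb1* (0.16), *Pfkfb4* (-3.03), *Pgam2* (-8.51), *Pklr* (2.55), *Ldha* (-10.45), *Slc16a1* (-15.09), *Pdk1* (-14.35), *Fbp1* (4.19), *Fbp2* (0.22), *Pck2* (-0.79), *G6pdx* (-15.62), *Pgd* (-3.80), *Tkt* (-7.88), *Adpgk* (-2.94), *Gbe1* (1.88) and *Phka2* (1.03). With 2 samples per genotype, standard errors over the list ran from 0.077 to 2.03, and were widest for *Pgam2*, *Fbp1* and *Eno3*, whose MYC-KI samples disagree.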
